A study of Homo sapiens with 4 samples.

Results

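The gene expression of cells carrying the C1233W form of PBRM1 was compared with that of cells carrying wild-type (WT) PBRM1. Both came from HEK293T, a human embryonic kidney cell line, after CRISPR knockout of PBRM1, and both held a plasmid for a GFP fusion of the protein, with RNA collected 48 h later. The 2 other plasmids of the series, GFP-PBRM1 P1048R and GFP-PBRM1 T1202K, went into the same knockout cells, and their values are set beside those of C1233W where they help to place a level. Each construct had 1 library, 4 in all, so every statement below is about libraries and no difference has a replicate check. Whether the knockout cells were a single clone, and which promoter drove the plasmid, are not stated in the labels, and knockout cells without a plasmid were not analysed here. Members of the comparison were the 15927 of 58735 genes in the table with at least 1 CPM (the standard read count scaled to library size) in the WT or the C1233W library.

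PBRM1, also called BAF180, is the subunit that defines the PBAF form of the SWI/SNF chromatin remodelling complexes, together with ARID2, BRD7 and PHF10. These complexes use ATP to move nucleosomes, and PBRM1 contributes bromodomains, which bind acetylated lysines, and bromo-adjacent homology (BAH) domains, which bind proteins and chromatin. PBRM1 is best known in the kidney as a tumour suppressor that is often lost in clear cell carcinoma. The series title places the mutants' changes in the BAH domain, and the comparison asks how such a substitution alters transcription when it is returned to cells that lack their own copy.

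The WT library held 10246250 counted reads and the C1233W library 10348552, within the series' range of 10246250 to 11205322. A floor of 3 reads was worth 0.321 CPM in WT and 0.290 CPM in C1233W. Ratios are given as log2 of C1233W over WT after adding 0.5 to each count, with a 95% interval that covers counting error only, since PCR copies are not independent molecules and variation between cultures is not in it. A gene passed the size rule, and is said to have risen or fallen, when the ratio was at least 2-fold and the interval excluded 0. All 15 markers of HEK293T cells were measured. Of the 12 blood markers 1 was measured, and PTPRC, the leukocyte common antigen, had 1 read in WT and 0 in C1233W. Of 13 fibroblast and endothelial markers 6 were measured, and of 12 keratinocyte and carcinoma markers 4.

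PBRM1 itself (ENSG00000163939, chromosome 3, 52545352 to 52685917, minus strand, GRCh38) was at 22768 CPM in the WT library and 60509 CPM in the C1233W library, with 8805 in P1048R and 15262 in T1202K. The C1233W library thus held 2.66 times the WT level, and the transcript took 6.04% of its reads against 2.08% in WT. Reads of the plasmid and of the edited gene are counted together here. The amount of PBRM1 transcript and the C1233W change differed together between the libraries, so their parts in any difference below cannot be told apart.

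Relative to WT, 678 genes were higher in C1233W and 194 were lower, which is 4.26% and 1.22% of the genes compared, or 5.47% in either direction. The median log2 ratio over all genes was −0.01, and 78.7% of genes lay within 1.5-fold. At 3-fold, 239 genes were higher and 70 lower, and at 4-fold 124 and 26. With library sizes taken as plain totals the median became 0.12 and the counts 935 higher and 124 lower, so the share of higher genes among those passing moved from 77.8% to 88.3%. Of the higher genes, 9 had 0 reads in WT; such a gene enters the comparison only through its reads in C1233W and so had to pass. No gene compared had 0 reads in C1233W.

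**Figure D1:**
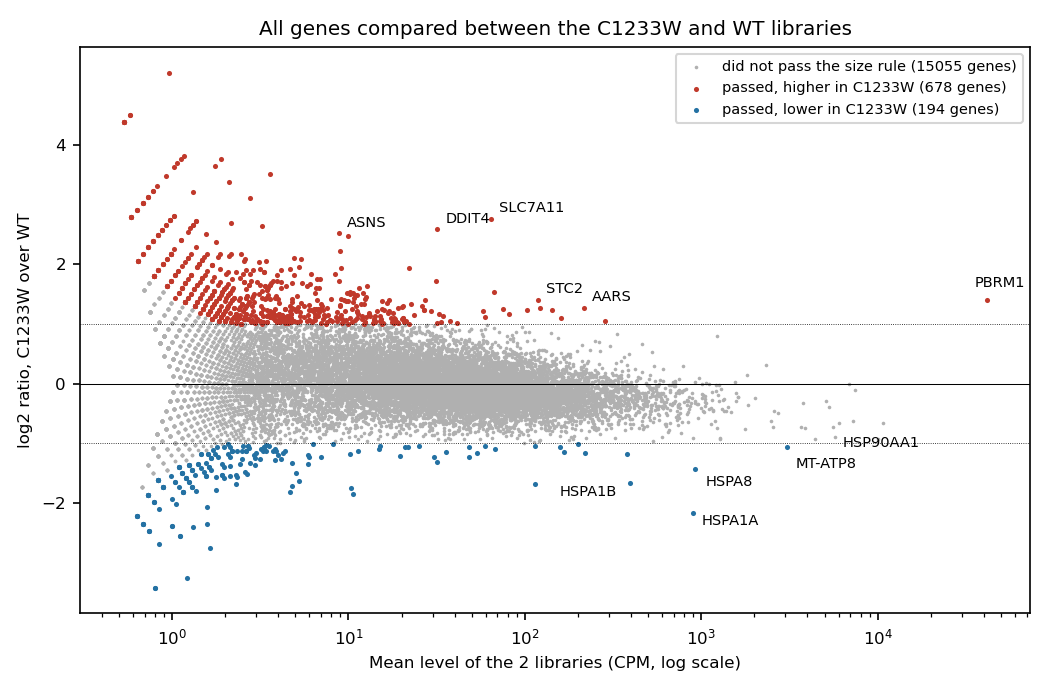
Log2 ratio of C1233W over WT (vertical axis) against the mean level of the 2 libraries in CPM (horizontal axis, log scale) for the 15927 genes compared. Each point is 1 gene, red where it passed the size rule as higher (678), blue where it passed as lower (194) and grey otherwise, with dotted lines at 2-fold; SLC7A11, DDIT4 and ASNS stand at the top and HSPA1A, HSPA1B and HSPA8 at the bottom among genes of sizeable level.

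The genes that passed were mostly of low level, and the ratio drifted with level. Under 2 CPM (mean of both libraries), 279 of 2293 genes were higher and 109 lower, with a median ratio of 0.25. A gene under 1 CPM in 1 library entered only through its level in the other. The filter itself therefore favours large ratios in this class. From 2 to 10 CPM, 300 of 3361 were higher and 56 lower, with a median of 0.18. From 10 to 50 CPM the counts were 85 and 15 of 5415, and from 50 to 200 CPM 11 and 7 of 3947. Above 200 CPM the order turned, with 3 higher and 7 lower of 911 genes and a median of −0.25. The most abundant transcripts therefore lay slightly below 0 as a class, and the medians of lists of abundant genes below are to be read beside that value. Counts and medians of lists of low-level genes are likewise to be read beside the values of their class. Over all genes 4.26% were higher and 1.22% lower, and every list count is to be read beside those shares too.

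**Figure D2:**
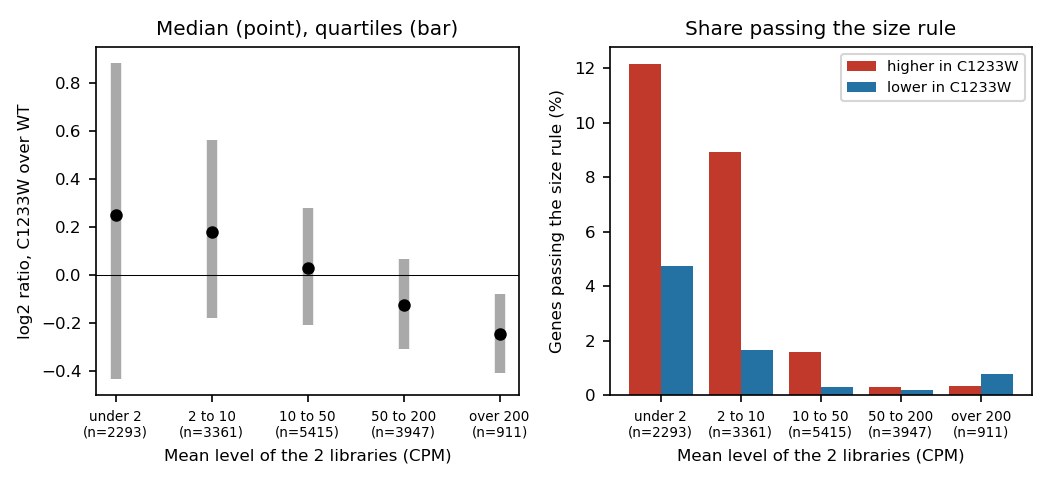
Left, median (point) and quartiles (bar) of the log2 ratio of C1233W over WT in 5 classes of mean level in CPM; right, percent of genes in each class that passed the size rule, higher in red and lower in blue. The median is 0.25 in the lowest class and −0.25 in the highest, and the share of higher genes is 12.2% and 0.329%.

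By type of gene, 521 of 13345 protein-coding genes were higher and 61 lower. Long non-coding genes had 117 higher and 71 lower of 1646, and pseudogenes, whose reads may come from their parent genes, 36 higher and 51 lower of 779. Higher genes had a median GC content of 52.3%, lower genes 46.7% and all genes 48.0%. Their median transcript lengths were 3021.5 bp, 1509.5 bp and 3433 bp. In the fifth of protein-coding genes with the highest GC content 188 of 2668 were higher, against 47 of 2669 in the fifth with the lowest. When a trend on GC content and length was removed, 615 genes were higher and 171 lower, of which 568 and 144 were among those of the first count. The part of base composition and length in single results was not tested beyond that alternative.

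Of the 12 protein-coding genes that rose with the highest lower bounds, 5 were in the lists of the integrated stress response, amino acid supply, glutathione and mTORC1 inhibition (SLC7A11, DDIT4, ASNS, CHAC1 and JDP2), and DDIT4 and ANKRD37 in the hypoxia list. The others, C4orf50, CYS1, IQCN, IL11, RASGRF1 and FAM131B, are given further on. In the integrated stress response, kinases that sense amino acid shortage, unfolded protein, haem or double-stranded RNA phosphorylate the translation factor eIF2alpha. General translation then slows while the transcription factor ATF4 is made, and ATF4, with C/EBP partners, switches on amino acid transporters, synthetic enzymes and aminoacyl-tRNA synthetases. ATF4 and C/EBP bind composite elements that hold the letters TGATGNAA.

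Of the 18 regulators of the response that were measured, 4 were higher and 1 was lower, with a median ratio of 0.44 against −0.01 over all genes. The 9 transcription factors accounted for 3 of the higher genes and the lower one, and their median was 0.91. ATF4 itself was at 240.3 CPM in WT, 272 in P1048R, 272 in T1202K and 428 in C1233W, a ratio of 0.83 (0.76 to 0.91) that stayed under 2-fold. ATF4 is regulated mainly through its translation, so its transcript is only one side of its activity. JDP2, an AP-1 family repressor (chromosome 14, 75427716 to 75474111, plus strand), rose from 3.10 CPM in WT to 14.7 in C1233W, while P1048R stood at 4.10 and T1202K at 4.24. The C1233W library was the only high one for this gene. ATF3, a stress-induced ATF/CREB factor, was at 84.4 CPM in WT and 199 in C1233W (1.24, 1.12 to 1.36), but at 232 in P1048R and 162 in T1202K, so that WT was the low library. DDIT3, the proapoptotic factor CHOP, rose by 1.05 (0.70 to 1.42), from 9.95 to 20.7 CPM. The pseudokinase gene TRIB3, which restrains ATF4, was at 10.3 CPM in WT and 23.4 in C1233W, again with P1048R (27.1) and T1202K (26.5) on the high side. ATF5 moved the other way, from 15.6 to 7.16 CPM (−1.12, −1.55 to −0.71), though on plain totals it was at −0.99. None of the 4 eIF2alpha kinases passed, and their median was −0.18. The feedback phosphatase subunit PPP1R15A (GADD34) was at 0.80 and CEBPB at 0.91, both under 2-fold.

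Amino acid transporters had 3 of 23 measured members higher and none lower, with a median of 0.28. SLC7A11, the cystine importer of system xc- (chromosome 4, 138164097 to 138242349, minus strand), was at 16.5 CPM in WT, 40.7 in P1048R, 33.3 in T1202K and 112 in C1233W, a 6.80-fold difference between C1233W and WT. All mutant libraries lay above WT, and C1233W lay far above the other mutants. Its partner chain SLC3A2 was at 102 CPM in WT against 221, 239 and 219 in P1048R, T1202K and C1233W, so the 3 mutant libraries lay close together. SLC6A9, a glycine transporter, rose by 1.83 (1.13 to 2.64) from 2.14 to 7.74 CPM, with P1048R at 6.20 and T1202K at 7.24. SLC7A5, the large neutral amino acid exchanger that also pairs with SLC3A2, was at 0.87 and the arginine transporter SLC7A1 at 0.85. SLC38A2, the most abundant member that did not pass, was at 0.37.

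Of 27 enzymes of amino acid and one-carbon metabolism, 3 were higher and 1 lower, with a median of −0.07 (0.06 on plain totals). ASNS, asparagine synthetase (chromosome 7, 97852118 to 97872542, minus strand), had 2.57 CPM in WT, 2.93 in P1048R, 3.36 in T1202K and 15.1 in C1233W. Its ratio was 2.53 (1.93 to 3.24), and C1233W alone was high. The mitochondrial folate enzyme gene ALDH1L2 rose by 1.53 (1.07 to 2.04), from 5.24 to 15.3 CPM, and GPT2, mitochondrial alanine transaminase, by 1.12 (0.94 to 1.31). For GPT2, WT was the low library at 37.2 CPM, against 86.5, 75.8 and 81.3 in P1048R, T1202K and C1233W. In the serine pathway, PSAT1 was at 0.73, PHGDH at 0.50 and SHMT2 at 0.33, none of them passing. The asparagine, serine, glycine and one-carbon group as a whole had 2 of 11 members higher and 9 above 0. The 7 genes of sulphur amino acid metabolism had none higher and 1 lower. That gene was MAT2A, which makes the methyl donor S-adenosylmethionine, at 304 CPM in WT and 136 in C1233W (−1.16, −1.26 to −1.07), with P1048R at 158 and T1202K at 176. PCK2, the mitochondrial phosphoenolpyruvate carboxykinase, was singled out after its values were seen and rose from 12.8 to 27.4 CPM (1.09), although it was at 0.93 after removal of the GC and length trend.

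Among the 20 cytosolic aminoacyl-tRNA synthetases, AARS and CARS rose and none fell, while the median was −0.07 (0.06 on plain totals). AARS, which charges alanine tRNA, was at 126 CPM in WT, 225 in P1048R, 226 in T1202K and 305 in C1233W (1.28, 1.18 to 1.37). CARS, for cysteine, was at 49.9, 114, 105 and 112 CPM in the same order. For both genes WT was the lowest library, and for AARS C1233W was the highest. TARS, the most abundant synthetase that did not pass, was at 0.53.

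In the glutathione and NRF2 list 3 of 33 members were higher and none lower, with a median of −0.04 (0.10 on plain totals). CHAC1, a glutathione-degrading enzyme and ATF4 target (chromosome 15, 40952962 to 40956519, plus strand), had 3.00 CPM in WT, 4.69 in P1048R, 4.68 in T1202K and 16.9 in C1233W, a ratio of 2.48 (1.92 to 3.13). SLC7A11 also belongs to this list. MAFF, a small MAF partner of NRF2, was the third, at 2.03 and 4.26 CPM (1.04, 0.26 to 1.92), and passed neither with 2 added to each count (0.99) nor after removal of the GC and length trend (0.86). NFE2L2, which encodes NRF2, was at −0.10 (−0.26 to 0.05). The quinone reductase NQO1, a classical NRF2 target, was at −0.91, and 7 of the 15 NRF2 targets in the list lay above 0.

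Of 14 inhibitors of the growth kinase complex mTORC1, 2 were higher, none lower and 12 above 0. DDIT4 (REDD1; chromosome 10, 72273920 to 72276036, plus strand), induced by hypoxia and by ATF4, was at 8.99 CPM in WT, 10.2 in P1048R, 12.4 in T1202K and 54.7 in C1233W, 6.05-fold above WT. C1233W stood alone, and the other 3 libraries lay close together. SESN2, the leucine-sensing sestrin (chromosome 1, 28259527 to 28282491, plus strand), was at 34.1, 61.8, 62.5 and 99.2 CPM in the same order, with a ratio of 1.54 (1.36 to 1.73). TSC2, the most abundant member that did not pass, was at 0.03. INHBE, an activin subunit gene, and ULBP1, a stress ligand of natural killer cells, were singled out after their values were seen and rose by 1.73 (1.71 to 5.80 CPM) and 1.24 (16.0 to 37.9 CPM).

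**Figure D3:**
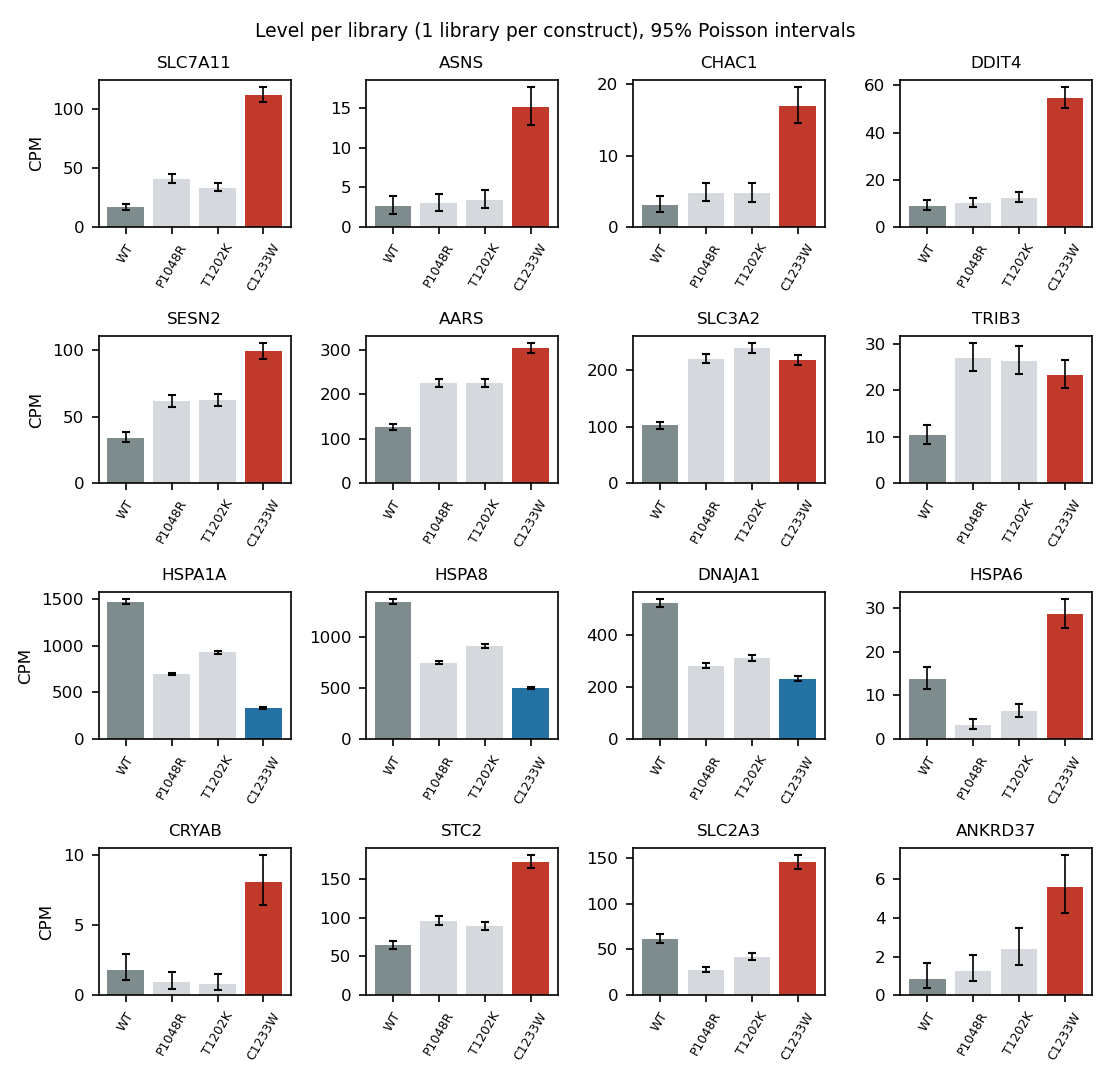
Level in CPM of 16 named genes in each library (WT, P1048R, T1202K, C1233W; 1 library per construct), with bars from 0, a separate scale per gene and exact 95% Poisson intervals as error bars. C1233W is coloured red where it passed as higher than WT and blue where it passed as lower. In ASNS, CHAC1, DDIT4 and CRYAB it stands alone, and in ANKRD37 it is highest with T1202K next. In SLC3A2 and TRIB3 all 3 mutant libraries lie above WT.

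Promoter sequences were read from a RefSeq table (GRCh38.p14), which had 10818 of the 13345 protein-coding genes compared. Each window covers 250 bases before and 50 after the start of transcription. Windows are counted per gene, and a gene held a motif when any window listed under its symbol did. The letters TGATGNAA, on either strand, stood in 301 of the 10818 windows (2.78%). They stood in 21 of the 388 windows of higher genes (5.41%) and in 2 of the 45 of lower genes (HMGN5 and GAS2, 4.44%). In the 4 lists of stress response regulators, amino acid transporters, enzymes and synthetases, 20 of 68 windows (29.4%) held them. Those 20 genes included 6 that rose (ATF3, JDP2, SLC3A2, ASNS, AARS and CARS) and none that fell, with a median ratio of 0.65. The 48 list members without the letters included 3 that rose and 2 that fell, with a median of −0.06. SLC7A11, ALDH1L2 and GPT2, which also rose, had no window and are not among the 68. Over all 301 genes with the letters 6.98% were higher and the median was 0.08, against 3.49% and −0.02 in the 10517 without. Lower genes made up 0.664% of those with the letters (2 genes) and 0.409% of those without (43 genes). These are descriptions of letters in a window, and a match is not a bound site.

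The 250 bases before the start are shown for 4 of the genes that rose, because they let the element be seen in its promoter; capitals mark the TGATGNAA match, which in AARS lies on the opposite strand. In ASNS the match begins 68 bases before the start, in JDP2 16, in AARS 187 and in ATF3 191.
ASNS, chr7:97872409-97872658, minus strand: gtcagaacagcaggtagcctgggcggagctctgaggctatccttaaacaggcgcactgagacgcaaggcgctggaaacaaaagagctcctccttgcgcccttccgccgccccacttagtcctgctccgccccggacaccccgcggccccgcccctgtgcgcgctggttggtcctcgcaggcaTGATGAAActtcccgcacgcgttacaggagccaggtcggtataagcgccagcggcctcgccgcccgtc
JDP2, chr14:75427772-75428021, plus strand: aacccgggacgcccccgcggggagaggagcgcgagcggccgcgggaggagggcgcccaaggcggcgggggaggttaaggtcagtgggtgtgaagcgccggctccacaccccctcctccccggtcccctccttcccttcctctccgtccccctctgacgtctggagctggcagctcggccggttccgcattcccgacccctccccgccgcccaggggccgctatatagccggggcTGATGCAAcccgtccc
AARS, chr16:70289507-70289756, minus strand: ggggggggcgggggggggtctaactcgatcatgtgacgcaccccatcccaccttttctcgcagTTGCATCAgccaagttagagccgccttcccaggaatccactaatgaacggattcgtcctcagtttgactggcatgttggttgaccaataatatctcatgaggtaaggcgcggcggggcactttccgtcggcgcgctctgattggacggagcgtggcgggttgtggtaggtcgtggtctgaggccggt
ATF3, chr1:212565157-212565406, plus strand: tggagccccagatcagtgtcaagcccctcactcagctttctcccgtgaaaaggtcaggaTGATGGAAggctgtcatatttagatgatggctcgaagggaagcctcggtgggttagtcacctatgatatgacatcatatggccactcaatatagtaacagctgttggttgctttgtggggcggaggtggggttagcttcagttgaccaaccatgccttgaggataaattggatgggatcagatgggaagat

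**Figure D4:**
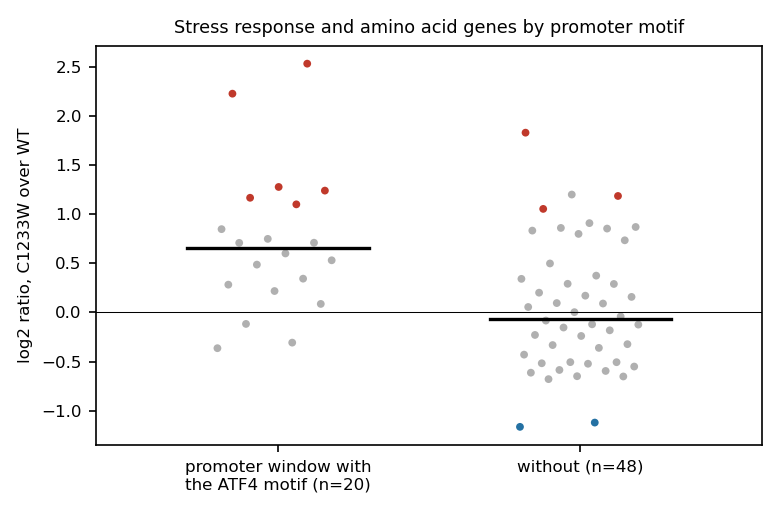
Log2 ratio of C1233W over WT (vertical axis) for the 68 members of the stress response, amino acid transporter, enzyme and synthetase lists with a promoter window, split by whether the window holds TGATGNAA (20 genes) or not (48 genes). Each point is 1 gene, red or blue where it passed the size rule as higher or lower, and black lines are medians, at 0.65 and −0.06.

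Several abundant cytosolic chaperone genes were lower in C1233W. Heat shock factor 1 (HSF1) is released when unfolded proteins occupy chaperones, binds inverted repeats of GAA, and induces HSP70, HSP90 and HSP40 genes. Of 13 HSP70 and HSP110 genes, 3 fell and 1 rose, with a median of −0.33 (−0.20 on plain totals). HSPA1A (chromosome 6, 31815464 to 31817946, plus strand), the main inducible HSP70, was at 1474 CPM in WT, 697 in P1048R, 929.7 in T1202K and 328 in C1233W (−2.17, −2.22 to −2.11). HSPA1B was at 601, 346, 474 and 189 CPM in that order. HSPA8, the constitutive HSC70 (chromosome 11, 123057489 to 123063230, minus strand), was at 1342, 744, 906 and 498 CPM. For these 3 genes WT was the highest library and C1233W the lowest. HSPA1A and HSPA1B are nearly identical neighbours whose reads may be divided between them, and HSPA8 has many pseudogene copies.

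HSPA6, a strictly inducible HSP70, rose instead, with 13.8 CPM in WT, 3.27 in P1048R, 6.36 in T1202K and 28.5 in C1233W (1.04, 0.74 to 1.36), but was at 0.95 after removal of the GC and length trend. It has a close pseudogene copy, so its reads are uncertain too. In the 28 other heat shock genes measured, 1 rose and 1 fell, with a median of −0.26 (−0.13 on plain totals). The HSP40 gene DNAJA1 fell from 524 CPM in WT to 232 in C1233W, with 283 in P1048R and 312 in T1202K. CRYAB, the small heat shock protein alphaB-crystallin, rose from 1.82 to 8.03 CPM (2.11, 1.38 to 2.99), while P1048R and T1202K were at 0.921 and 0.795. Genes of HSP90, its co-chaperones and chaperonins had a median of −0.52 with none of 11 passing. HSP90AA1 was at 7419 CPM in WT, 3709 in P1048R, 4110 in T1202K and 3992 in C1233W (−0.89), so WT was the high library. The co-chaperones DNAJB1 (0.32) and BAG3 (0.52) lay on the other side of 0. HSF1 was at 0.02 (−0.13 to 0.18) and HSF2 at 0.62 (0.49 to 0.76), neither passing.

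The heat shock element, searched as alternating GAA and TTC units each spaced by 2 bases, on either strand, stood in 49 of the 10818 promoter windows (0.453%), in 2 of 13 HSP70 and HSP110 genes and in 6 of 25 other heat shock genes. Those 49 genes had 1 higher (HSPA6, 2.04%) and 2 lower (HSPA8 and DNAJA1, 4.08%) and a median of −0.11. The 10769 genes without the element had 3.59% higher, 0.399% lower and a median of −0.02. The windows of HSPA1A and HSPA1B, which fell furthest in the HSP70 and HSP110 list, held no match to this exact pattern. Elements with imperfect units were not searched for, so a window without a match may still hold one. The promoters of HSPA8 and HSPA6 are shown because both hold the element (capitals) and the genes went opposite ways; in HSPA8 the matches begin 230 and 55 bases before the start, in HSPA6 74.
HSPA8, chr11:123062137-123062386, minus strand: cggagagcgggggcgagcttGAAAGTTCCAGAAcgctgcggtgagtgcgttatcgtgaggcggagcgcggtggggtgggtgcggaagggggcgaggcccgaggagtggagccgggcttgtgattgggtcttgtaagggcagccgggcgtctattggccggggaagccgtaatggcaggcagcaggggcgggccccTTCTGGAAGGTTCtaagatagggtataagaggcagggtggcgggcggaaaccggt
HSPA6, chr1:161524290-161524539, plus strand: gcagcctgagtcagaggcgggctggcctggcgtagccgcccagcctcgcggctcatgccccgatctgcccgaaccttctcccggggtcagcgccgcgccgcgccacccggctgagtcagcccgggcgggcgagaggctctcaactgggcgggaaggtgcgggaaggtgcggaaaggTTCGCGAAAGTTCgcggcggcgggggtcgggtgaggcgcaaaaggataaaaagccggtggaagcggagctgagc

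In the endoplasmic reticulum, whose unfolded protein response shares PERK and ATF4 with the integrated stress response, no gene of 31 passed in either direction. The median was −0.20 (−0.07 on plain totals). HSPA5, the lumenal HSP70 BiP, was at 706 CPM in WT and 362 in C1233W (−0.96, −1.02 to −0.91), and HSP90B1 at −0.91. For HSPA5, P1048R was at 349 CPM and T1202K at 430, so WT was the high library. HERPUD1, a degradation factor of this compartment, was highest at 0.80, and the sensors and regulators, among them XBP1 (−0.04) and ATF6 (−0.07), had a median of −0.03.

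Hypoxia target genes lay mostly on the higher side. The whole hypoxia list, regulators included, had 15.6% of 32 measured members higher, against 4.26% of all genes. Under low oxygen the factors HIF1A and EPAS1 (HIF2A) escape hydroxylation and degradation and bind ACGTG or GCGTG near genes for glucose uptake, angiogenesis and mitophagy. Of 24 target genes measured 5 rose, none fell and 23 were above 0, with a median of 0.55. The 8 regulators had none passing and a median of −0.20, with HIF1A at −0.27 (−0.36 to −0.19) and EPAS1 at −0.21 (−0.46 to 0.04); HIF activity is set largely by protein stability. ANKRD37 (chromosome 4, 185396021 to 185400628, plus strand), an ankyrin-repeat HIF target, was at 0.856 CPM in WT, 1.26 in P1048R, 2.38 in T1202K and 5.61 in C1233W (2.64, 1.64 to 3.99). SLC2A3, the neuronal-type glucose transporter GLUT3 (chromosome 12, 7919230 to 7936275, minus strand), was at 61.6, 27.7, 42.1 and 145 CPM in that order. WT therefore lay above P1048R and T1202K for SLC2A3, and C1233W above all. STC2, a secreted glycoprotein that is also an ATF4 target (chromosome 5, 173314713 to 173329503, minus strand), was at 64.8, 96.0, 88.9 and 172 CPM, and PFKFB4, a regulator of glycolytic flux, rose from 9.42 to 20.7 CPM (1.13, 0.77 to 1.51). DDIT4, given above, is the fifth.

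Targets that did not reach 2-fold included the mitophagy receptor BNIP3 (0.77), the glucose transporter SLC2A1 (0.73) and NDRG1 (0.49). The angiogenic factor VEGFA, at 41.3 CPM in WT and 77.8 in C1233W (0.91, and 1.04 on plain totals), was another. It was higher still in P1048R (89.4 CPM), with T1202K at 67.8. The 17 glycolytic enzymes, several of them HIF targets, had none passing and a median of 0.00, with HK2 at 0.68 and ENO1, the most abundant, at −0.16. ACGTG or GCGTG stood in 70.5% of all promoter windows, in 61.3% of those of higher genes and in 22 of 26 windows of the hypoxia list (84.6%). The share varied widely in lists without a higher gene. It was 100% for ribosome biogenesis factors, 93.1% for splicing factors and 48.3% for proteasome subunits. The share therefore does not set the hypoxia list apart. The windows of DDIT4 and ANKRD37 are shown as those of the 2 hypoxia genes with the largest ratios, with the matches in capitals; in ANKRD37 matches on both strands overlap in its first run of capitals.
DDIT4, chr10:72273674-72273923, plus strand: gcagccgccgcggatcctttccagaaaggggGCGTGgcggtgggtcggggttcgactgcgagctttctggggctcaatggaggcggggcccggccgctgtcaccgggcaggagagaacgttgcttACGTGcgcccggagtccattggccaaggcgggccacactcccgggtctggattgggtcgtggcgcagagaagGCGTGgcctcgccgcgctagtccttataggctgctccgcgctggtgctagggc
ANKRD37, chr4:185396591-185396840, plus strand: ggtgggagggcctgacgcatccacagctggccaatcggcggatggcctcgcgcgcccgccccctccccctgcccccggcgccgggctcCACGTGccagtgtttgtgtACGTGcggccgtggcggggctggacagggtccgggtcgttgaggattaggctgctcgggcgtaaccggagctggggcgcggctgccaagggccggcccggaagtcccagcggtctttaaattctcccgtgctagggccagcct

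**Figure D5:**
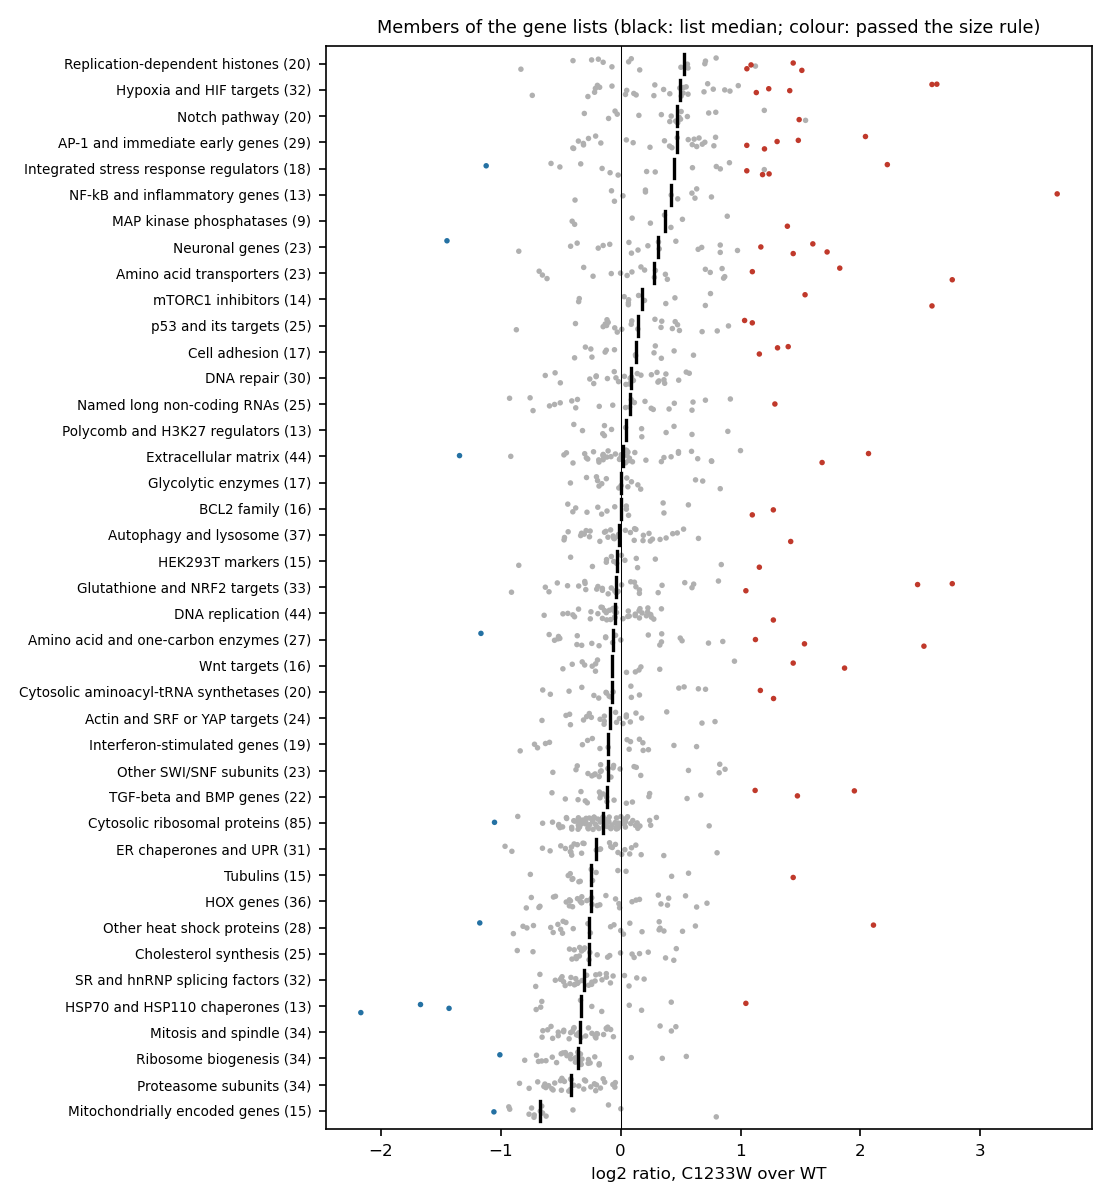
Log2 ratio of C1233W over WT (horizontal axis) for the measured members of each gene list with at least 9 of them (number in parentheses), ordered by list median (black bar). Each point is 1 gene, red or blue where it passed the size rule as higher or lower; histone, hypoxia, Notch and AP-1 lists lie highest, at medians of 0.53 to 0.47, and proteasome subunits and mitochondrially encoded genes lowest, at −0.42 and −0.67.

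Immediate early genes encode transcription factors that respond within minutes to growth factor and stress signals. Of 29 measured, 5 rose (17.2%, against 4.26% of all genes) and none fell, with a median of 0.47. Most of the 5 were of low level. All genes under 2 CPM had 12.2% higher, and those of 2 to 10 CPM 8.93%. All 7 AP-1 subunits lay above 0, and FOS passed, at 3.21 CPM in WT, 1.59 in P1048R, 4.24 in T1202K and 7.45 in C1233W (1.20, 0.59 to 1.87). JUN, the most abundant AP-1 subunit, was at 0.10. The orphan nuclear receptor gene NR4A1 rose from 5.88 to 16.5 CPM (1.48, 1.04 to 1.96) and NR4A2 by 1.05 (0.37 to 1.81). EGR2 went from 4 to 20 reads and EGR3 from 7 to 20. MYC was at −0.21. In a family of phosphatases that switch off MAP kinases, DUSP8 rose from 8.56 to 22.5 CPM, with P1048R (36.2) and T1202K (32.6) higher still. IL11, an interleukin-6 family cytokine, had 2 reads in WT and 34 in C1233W, a log2 ratio of 3.64 with an interval of 1.98 to 7.04. It was the single member passing of 13 in the NF-kB and inflammatory list, whose median was 0.42, or 0.15 after removal of the GC and length trend. No interferon-stimulated gene of 19 passed.

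A few other signalling genes rose at low levels. All genes under 2 CPM had 12.2% higher and those of 2 to 10 CPM 8.93%. The TGF-beta and BMP list had 13.6% higher, the Wnt list 12.5% and the Notch list 5%, against 4.26% of all genes. The Wnt list had a median of −0.07. The activin subunit genes INHBA (5 to 23 reads) and INHBB (13 to 41 reads) and the matrix protein gene TGFBI (13 to 32 reads) rose in the TGF-beta and BMP list, where 3 of 22 members were higher and the median was −0.12 (0.02 on plain totals). NOTUM, a secreted Wnt inhibitor, and SP5, a Wnt-induced repressor, were the 2 higher genes of 16 Wnt targets, at 5.22 and 2.13 CPM in C1233W against 1.39 and 0.749 in WT. Their P1048R and T1202K levels were 4.27 and 3.80 CPM for NOTUM and 2.60 and 2.74 for SP5, so all 3 mutants lay above WT, and SP5 failed the rule after the GC and length trend was taken out (1.15, its interval reaching 0). In the Notch pathway the ligand gene DLL4 (9 to 29 reads) was the 1 gene of 20 to pass, 16 were above 0 and the median was 0.47, or 0.23 with that trend removed.

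p53, the DNA damage-responsive tumour suppressor, was at −0.03 (−0.16 to 0.11), and 2 of 25 genes of its list rose with none falling. These were BBC3 (PUMA, 28 to 67 reads), which opens the mitochondrial death pathway, and PHLDA3 (24 to 55 reads), an AKT inhibitor, and neither passed after removal of the GC and length trend (0.68 and 0.91). With 2 added to each count PHLDA3 was at 0.99. PMAIP1 (NOXA) was at −0.05. HRK, another death-promoting BCL2 family gene, rose from 104 to 279 reads (1.27, 0.95 to 1.62), with 19.4 CPM in P1048R and 18.5 in T1202K against 11.1 in WT.

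Subunits of SWI/SNF and Polycomb complexes other than PBRM1 did not pass, whereas some histone genes did. ARID2 was at −0.12 (−0.28 to 0.04), BRD7 at −0.45 (−0.53 to −0.36) and PHF10 at −0.46 (−0.54 to −0.37), and BRD7 and PHF10 stayed within 1.5-fold. In CPM, BRD7 was at 256 in WT and 188 in C1233W, and P1048R (181) and T1202K (189) lay beside C1233W. Of the 23 remaining SWI/SNF subunits none passed, the median was −0.11 (0.02 on plain totals) and the ATPase SMARCA4 was at −0.08. None of the 13 Polycomb and H3K27 genes passed, with EZH2 at 0.18. On plain totals 1 gene of each of these lists passed as higher. Nor did any of 36 HOX genes pass, whose median was −0.25 (−0.12 on plain totals). Replication-dependent histone genes had 4 of 20 measured members higher and a median of 0.53, while 51 of 71 were under the minimum. The measured members had a median level of 3.51 CPM. All genes of 2 to 10 CPM had 8.93% higher and a median of 0.18. The higher histone genes were HIST1H2BN (5.56 to 11.6 CPM), HIST1H2BE, HIST1H4H and HIST2H4A, a duplicated gene whose reads cannot be assigned with certainty. Histone transcripts of this kind lack poly(A) tails, and the labels do not say how the libraries captured such RNA. The linker histone gene H1F0, whose transcript is of the polyadenylated type, was singled out after its values were seen and rose from 184 to 383 CPM (1.06).

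Large complexes of abundant proteins lay slightly below 0, mostly without passing. All 34 proteasome subunits measured were below 0 (31 on plain totals), none passed, and the median was −0.42, where all genes of 50 to 200 CPM had −0.12 and those above 200 CPM −0.25. PSMA4 was at 589 and 347 CPM (−0.76). Ribosome biogenesis factors had 31 of 34 below 0 and a median of −0.36 (−0.23 on plain totals). LYAR, a nucleolar factor, passed as lower at −1.01, and was under 2-fold on plain totals (−0.88), with DESeq2 scaling (−0.99) and after removal of the GC and length trend (−0.92). Of 85 cytosolic ribosomal protein genes 1 fell, RPL36A (34.1 to 16.4 CPM), which overlaps a read-through gene and has pseudogene copies. RPL36A did not pass on plain totals (−0.92) or after removal of the GC and length trend (−0.98), so no member of the list passed there. The list median was −0.15, or −0.02 on plain totals. Splicing factors had a median of −0.30 (−0.17 on plain totals) with none of 32 passing, and HNRNPA2B1 was at −0.49.

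Transcripts of the mitochondrial genome were lower, with 6.23% of reads in C1233W against 8.48% in WT. Of the 30 genes of that genome that were compared, 5 passed as lower (16.7%, against 1.22% of all genes) and 0 as higher. All 13 messenger RNAs were below 0, with a median of −0.72, and 1 passed. It was MT-ATP8, a subunit gene of ATP synthase, at 4142 CPM in WT, 1632 in P1048R, 1527 in T1202K and 1991 in C1233W, so WT was the high library. Its ratio of −1.06 was −0.93 on plain totals and −0.59 after removal of the GC and length trend, under 2-fold both times. MT-ATP8 overlaps MT-ATP6 (−0.93), and nuclear copies of mitochondrial sequence can share reads. The ribosomal RNAs did not follow, with MT-RNR2 at 0.00 and MT-RNR1 at 0.80.

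Growth and division genes mostly differed by less than 2-fold. Mitosis and spindle genes had 31 of 34 below 0 and a median of −0.34 (−0.21 on plain totals), none passing, and TOP2A was at −0.29. Of 44 DNA replication genes 1 rose, CDT1, which licenses replication origins, at 71.4 CPM in WT and 179, 179 and 173 in P1048R, T1202K and C1233W. WT was the low library and the mutants lay together. The list median was −0.05, or 0.08 on plain totals. No gene of homologous recombination and damage signalling passed among 30, with a median of 0.08 (0.22 on plain totals). TFEB, the master regulator of lysosome genes, rose from 4.92 to 13.3 CPM, with 15.8 and 16.0 in P1048R and T1202K. None of the other 36 autophagy and lysosome genes passed, and the 14 lysosome genes had a median of −0.05. Cholesterol synthesis had none of 25 passing and a median of −0.26 (−0.13 on plain totals).

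Neuronal and adhesion genes, which HEK293T cells express in part, had several higher members. Of 23 neuronal genes 4 rose and 1 fell, with a median of 0.32. Their median level was 6.54 CPM, and all genes of 2 to 10 CPM had 8.93% higher and a median of 0.18. RIMS2, a presynaptic scaffold gene, was at 4.07 CPM in WT and 19.1, 14.1 and 13.5 in P1048R, T1202K and C1233W, and the GABA-B receptor gene GABBR2 at 3.21, 16.5, 10.8 and 9.87. For both, WT was the low library and C1233W the lowest of the mutants. RBFOX3 (NeuN), a splicing factor of mature neurons, went from 21 to 53 reads and TUBB3 from 6 to 19. CHGA, chromogranin A, fell from 18 to 7 reads, and the neurofilament gene NEFM, the most abundant member, was at −0.85. Of 17 adhesion genes 3 rose and none fell. They were CELSR3, an atypical cadherin of axon guidance (15.0 to 39.6 CPM), NFASC, neurofascin (4.07 to 10.2 CPM), and L1CAM (2.35 to 5.32 CPM), the last at 0.99 after removal of the GC and length trend. For CELSR3, P1048R (60.1 CPM) and T1202K (41.9) lay above C1233W, so WT was the low library. Collagens and laminins had 2 of 44 higher (4.55%, against 4.26% of all genes) and 1 lower (2.27%, against 1.22%). Their median was 0.02, and −0.19 after removal of the GC and length trend, with 2 higher and 2 lower there. COL5A3 went from 5 to 25 reads and COL6A5 from 5 to 19, while COL6A3 fell from 19 to 8. For COL5A3, P1048R (184 reads) and T1202K (70 reads) lay above C1233W.

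The HEK293T markers had L1CAM as their 1 higher member of 15, with VIM at −0.03 and KRT18 at 0.04. Among markers of other cells, the endothelial claudin gene CLDN5 (6 to 25 reads) and the albumin gene ALB (2 to 18 reads, 2.74, 0.96 to 6.18) rose at low levels. COL1A1 was at 0.01 and KRT10 at −0.17. Any part of other cells in the results was not tested.

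The remaining genes with the highest lower bounds were of low level in WT. All were under 1 CPM there, so they entered the comparison only through their C1233W level. C4orf50 went from 0.535 CPM (5 reads) to 6.67 (69 reads), a ratio of 3.51 (2.35 to 5.31), with 2.76 in P1048R and 2.38 in T1202K. CYS1, which encodes the ciliary protein cystin, had 0 reads in WT and 20 in C1233W, at least 6.03-fold higher when WT is set at the floor of 3 reads. The counting interval of its log2 ratio started at 2.16 and had no upper end. IQCN had 2 reads in WT and 37 in C1233W, a ratio of 3.76 (2.11 to 7.16). RASGRF1, a RAS exchange factor of the brain, had 3 and 40 reads (3.39, 1.94 to 5.93), and FAM131B 5 and 52 reads (3.11, 1.92 to 4.91). In CYS1, IQCN, RASGRF1 and FAM131B, both P1048R and T1202K lay between WT and C1233W, for example at 2.43 and 1.41 CPM for RASGRF1 against 0.321 and 3.87.

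On the lower side, HMGN5, a nucleosome-binding protein that loosens chromatin, was at 229 CPM in WT, 102 in P1048R, 80.2 in T1202K and 104 in C1233W (−1.14, −1.25 to −1.04). WT stood apart as the high library. MTHFS, which returns folinic acid to the folate pool, fell from 7.28 to 2.03 CPM (−1.82, −2.62 to −1.12), and shares exons with a read-through gene. PIGW, an acyltransferase of GPI anchor synthesis, fell by 1.22 on the log2 scale, from 43.0 to 18.4 CPM, with P1048R at 28.1 and T1202K at 36.6. PBDC1 fell by 1.17, from 74.0 to 32.9 CPM, with P1048R (37.7) and T1202K (39.8) near C1233W, so WT was its high library. DYNLL1, a dynein light chain, was at 214 and 102 CPM (−1.07), and at −0.94 on plain totals. TBC1D10C had 14 reads in WT and 1 in C1233W, a ratio of −3.42 (−9.35 to −1.24).

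Of the long non-coding genes, AC004982.2 (1 to 23 reads), LINC01869 (1 to 22), SLC7A11-AS1 (1 to 21) and AC244021.1 (1 to 20) had the highest lower bounds, with log2 ratios of 3.82 (1.76 to 9.74), 3.76 (1.68 to 9.68), 3.70 (1.61 to 9.62) and 3.63 (1.53 to 9.55). All of these were under 1 CPM in WT and entered the comparison only through C1233W. SLC7A11-AS1 lies antisense to SLC7A11, and with the strand setting unknown reads of the pair cannot be told apart. The genes with the lowest upper bounds were AC005197.1 (14 to 1 reads), AC019069.1 (69 to 23), FLJ12825 and AC009506.1 (both 18 to 3). Their ratios were −3.42 (−9.35 to −1.24), −1.71 (−2.48 to −1.03) and, for the last pair, −2.55 (−5.14 to −0.95). Of 25 named long non-coding RNAs, EPB41L4A-AS1, a snoRNA host, rose from 11.7 to 28.5 CPM, with P1048R at 39.0 and T1202K at 36.0, and the paraspeckle RNA NEAT1 was at 0.11.

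At the minimum of 1 CPM, TAS1R3 and HTR6 stood just inside, each with 11 reads and 1.06 CPM in C1233W, and MT-TS1 and MT-TK just outside, with 10 reads and 0.967 CPM.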

How the data were processed

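RNA was sequenced from 4 libraries, 1 per GFP-PBRM1 construct; per the labels' protocols, total RNA was extracted with TRIzol and a stranded Qiagen library kit was used. The authors deposited whole-number read counts per gene, with no normalization. The submitters' processing notes name Trim Galore, HISAT2, featureCounts and the build hg38. Annotation, strand setting and treatment of multiply aligned reads: not given in the sources used here. Each of the 58735 gene identifiers was found in GENCODE release 29, which supplied coordinates, GC content and lengths.

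From these counts, library sizes were scaled over all 4 libraries with TMM factors (edgeR 4.0.16, R 4.3.3). Levels are CPM (counts divided by the scaled library size) with exact 95% Poisson intervals. Log2 ratios use 0.5 added to each count, and their intervals follow from the exact (Clopper-Pearson) binomial interval for the C1233W share of a gene's reads in the pair of libraries (scipy 1.17.1). With 1 library per construct no p-value was computed. The calculation was checked on simulated data. A total of 9 alternatives were run, DESeq2 1.42.0 size factors among them.

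The comparison and the 46 gene lists were chosen with earlier results of these data known. Genes are named by rule: the 12 protein-coding genes with the firmest bound in each direction (PBRM1 apart), 4 long non-coding genes likewise, up to 6 passing members per list and direction with the most abundant member not passing, PBAF subunits, 10 stress and growth regulators, and 2 genes on each side of the minimum. List members named besides these were chosen after their values were seen.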

Additional observations from a re-analysis of the deposited data

How the results depend on the processing

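On library totals in place of TMM, 935 genes were higher and 124 lower. With a minimum of 5 CPM in place of 1, fewer genes were compared (12039), and 265 were higher and 48 lower. Where the whole interval had to lie past 2-fold, 96 were higher and 19 lower. DESeq2 size factors (724 and 181), TMM on the WT and C1233W libraries alone (678 and 194), TMM without PBRM1 reads (681 and 194), no filter (750 and 273), 2 added to each count (622 and 184) and removal of a GC and length trend (615 and 171) kept both counts within 1.5 times of 678 and 194. Over the named genes and the 8 settings other than the whole-interval one, no direction of a gene that passed was reversed, 20 ratios no longer passed and 2 newly passed (VEGFA and DUSP6 on totals, at 1.04 and 1.02). Besides the losses given in the report, SEMA3F (0.82) and SEMA6B (0.74) did not pass with the trend removed. No paired analysis was possible because each construct has 1 library, and no library could be left out. At 1 CPM a gene rests on about 10 reads, so most differences under 2 CPM have wide intervals, and variation between cultures is unmeasured throughout.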

Other observations

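Some genes outside the lists were singled out after their values were seen. The ETS factor genes ETV4 and ETV5 and the feedback inhibitor SPRY4, textbook targets of FGF and ERK signalling, were higher in C1233W. ETV4 was at 2.14 CPM in WT, 2.93 in P1048R, 3.00 in T1202K and 8.42 in C1233W (1.95, 1.26 to 2.76), and ETV5 at 2.67, 3.85, 3.89 and 9.67 CPM in the same order (1.83, 1.21 to 2.55). C1233W was the high library for both genes. SPRY4 had 7 reads in WT and 31 in C1233W. Other genes of the same signalling did not pass: DUSP6 was at 0.89, ETV1 at 0.73, SPRY2 at −0.01 and PHLDA1 at −0.15.

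NGFR, the p75 neurotrophin receptor gene, was at 3.32 CPM in WT, 3.94 in P1048R, 4.50 in T1202K and 10.3 in C1233W, and GEM, a small GTPase gene that limits calcium channels, at 3.64, 4.94, 6.09 and 13.2 CPM. C1233W stood apart from the other 3 libraries in both. VLDLR, a lipoprotein and reelin receptor gene, was at 8.99 CPM in WT and 19.1 in C1233W, with 9.97 in P1048R and 7.59 in T1202K. CRABP2, a retinoic acid carrier gene, was at 11.1 CPM in WT and 23.9 in C1233W. NXPH3, a neurexophilin gene, had 2.03 CPM in WT, 9.13 in P1048R, 4.95 in T1202K and 8.80 in C1233W, so WT was the low library there. Among abundant genes, PTMA, prothymosin alpha, was at 1686 CPM in WT and 793, 897 and 885 in the mutants, a ratio of −0.93 for C1233W that stayed under 2-fold.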
